A study of Mus musculus with 2 samples.

Results

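The genes described here form a module of 40 that encode the extracellular matrix of the liver, the enzymes that build and clear it, and proteins that mark hepatic stellate cells and myofibroblasts. The members were listed by name. Of the 40 members, 39 were named on the array, among 12393 named genes in all; Fbn1 was unnamed here. Where several probe sets named a gene and no other, the gene was read from the one whose mean over both arrays was highest. It counts as measured where that signal was at least 80 on at least 1 array, which held for 26 members and for 5911 genes in all. Signals are in the units of the MAS5 software, and those under a floor of 40 were set to 40 before a ratio was taken, since such dim signals carry no order.

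Liver RNA was profiled on Affymetrix arrays, with 1 array for each of 2 diets. All mice were female, 2 months old, of C57BL/6J background and labelled as homozygous for a knockout of the apolipoprotein E gene, a genotype known for high plasma cholesterol; the Apoe signal of 1 array goes against that label, as given at the end. For 4 weeks the controls ate chow with 10% (w/w) olive oil, the diet coded OO, and the others chow with the same share of an olive oil enriched in maslinic acid, a triterpene of olives, the diet coded MAOO. The study held 12 mice, 6 per diet, and whether an array carries RNA of 1 mouse or of a pool is unknown here. With 1 array per diet no difference has a replicate check, no test between diets exists, and every value below describes these arrays.

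Stellate cells lie between the hepatocytes and the sinusoidal endothelium, store retinyl esters in the healthy liver and, when activated, become contractile myofibroblasts. Those cells lay down fibrillar collagen types I and III, while the thin basement membrane matrix around vessels and sinusoids is built of type IV collagen, laminins and nidogen. Lysyl oxidase crosslinks collagen and elastin, matrix metalloproteinases cut them, and tissue inhibitors of metalloproteinases (TIMPs) hold those proteases in check. Vitronectin and plasma fibronectin are matrix proteins that hepatocytes secrete into blood.

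A few start regions are shown first, because the results turn on the pair of type IV collagen genes and on vimentin and type III collagen. Col4a1 and Col4a2 lie head to head on chromosome 8 of the GRCm38.p6 build and share a promoter. In the RefSeq promoter table the Col4a1 start site is 11312826 on the minus strand and the Col4a2 start site 11312805 on the plus strand, so the first 22 bases of each transcript overlap, on opposite strands. The stretch is written on the plus strand with those 22 bases in capitals and 4 flanking bases on each side, and 72.7% of the capitals are G or C.
Col4a1 and Col4a2 starts, chr8:11312801-11312830: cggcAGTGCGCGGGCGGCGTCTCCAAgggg

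Col3a1 is a fibrillar collagen gene well above the minimum on both arrays with the probe set used. The 3 measured probe sets of Vim all read higher on the array labelled MAOO. Each of these genes carries the letters TATAAA, those of a TATA box, upstream of the start. The 250 bases before each start follow, 5′ to 3′ on the gene's plus strand, with that match in capitals. It begins 117 bases before the Col3a1 start and 32 bases before the Vim start. Whether the letters act as a TATA box at these places was not tested.
Col3a1, chr1:45311288-45311537: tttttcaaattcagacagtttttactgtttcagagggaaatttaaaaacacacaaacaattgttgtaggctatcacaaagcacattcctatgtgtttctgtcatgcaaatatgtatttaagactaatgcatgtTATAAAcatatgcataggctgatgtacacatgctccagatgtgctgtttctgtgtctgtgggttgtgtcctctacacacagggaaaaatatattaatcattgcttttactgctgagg
Vim, chr2:13574061-13574310: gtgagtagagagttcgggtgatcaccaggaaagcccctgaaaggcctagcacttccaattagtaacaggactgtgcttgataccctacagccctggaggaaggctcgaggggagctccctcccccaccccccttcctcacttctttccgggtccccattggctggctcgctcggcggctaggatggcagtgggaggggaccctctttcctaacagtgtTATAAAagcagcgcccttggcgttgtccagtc

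The promoter table held 30 start regions for 27 of the members. TATAAA, searched on both strands over the 250 bases upstream, was found in 5 of the 30, those of Col3a1, Vim, Postn, Ecm1 and Vtn, and in 12.4% of all 32851 regions. The strict CArG box, CC, 6 letters of A or T and then GG, is a form of the element bound by serum response factor. It was found in 0 of the 30, Acta2 and Des included, and in 1.47% of all regions. Looser forms were not searched for, and the Acta2 window holds the near matches CCCTATATGG and CCTTGTTTGG. No match says only that the strict letters are not in these windows.

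Over the 26 measured members the differences were small and mostly in 1 direction. The log2 ratio of the array labelled MAOO over the array labelled OO had a median of 0.12, against -0.01 over all measured genes. Of the 26 members 20 lay above 0 and 6 below, where 47.8% and 52.0% of all measured genes did. A difference of 1.2-fold or more upward was seen in 7 members, namely Col6a1, Timp2, Col6a3, Acta2, Lum, Col14a1 and Vim, beside 9.47% of all genes, and downward in 1, Pdgfra, beside 9.52%. At 1.5-fold there were 0 members higher and 0 lower, where 1.47% and 1.57% of all genes were.

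Between measured probe sets of the same gene the log2 ratio had an SD of 0.23 over 1815 genes. These probe sets read the same RNA on the same arrays, so the SD holds no variation between mice or between arrays. Of the 26 member ratios 17 were no larger than it in size, where 76.6% of all measured genes were. The spread depended on signal. Genes with a mean signal under 250 had a between-probe-set SD of 0.27, those from 250 to 1000 an SD of 0.18 and those over 1000 an SD of 0.15.

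The higher ratios of the members lay in the lower signal ranges. In the range under 250 the 13 members had a median log2 ratio of 0.16, against 0.00084 over 2930 genes. Of these members 11 lay above 0, beside 50.1% of the genes. From 250 to 1000 the 8 members had a median of 0.14, against -0.0069 over 2008 genes, and 7 lay above 0, beside 48.9%. Over 1000 the 5 members had a median of -0.017, against -0.035 over 973 genes, and 2 lay above 0, beside 39.1%. The difference between the ranges was not tested.

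**Figure D1:**
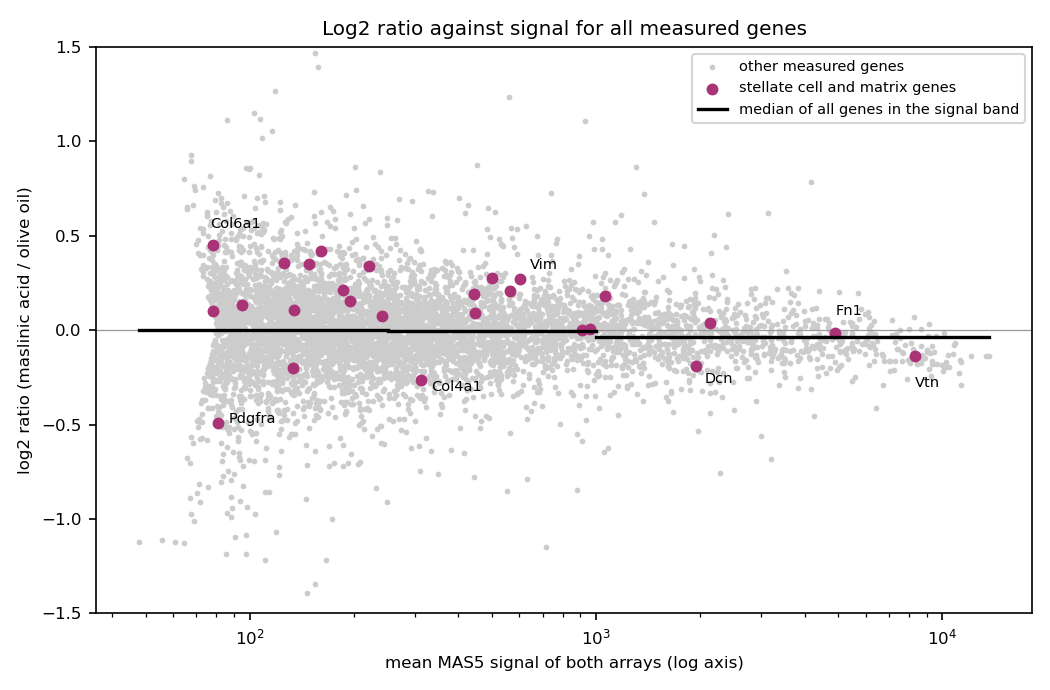
Log2 ratio (MAOO over OO array) against the mean signal of both arrays on a log axis, for all measured genes (grey) and the 26 measured members (purple), with the median of all genes in each of 3 signal ranges as a black line. Members lie mostly above the line under a signal of 1000, and 10 grey genes lie beyond the plotted range of 1.5.

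Among the fibrillar collagens, which give the interstitial matrix its tensile strength, all 3 measured genes were higher on the array labelled MAOO. Col3a1, the type III collagen chain, read 524.3 on the array labelled OO and 604.6 on the array labelled MAOO, a log2 ratio of 0.21. Col1a2, a chain of type I collagen, read 172.4 and 200.0, a log2 ratio of 0.21. Both ratios are smaller than the SD of 0.23 between probe sets over all signals, and neither reached 1.2-fold. Within its own signal range the ratio of Col3a1 exceeds the SD of 0.18, and that of Col1a2 lies under the 0.27. The other probe set of each gene lay under the floor on both arrays, at 23.2 and 34.3 for Col3a1 and 22.1 and 34.5 for Col1a2. The probe sets used end in _a_at. Neither gene was measured when probe sets ending in _x_at, _s_at or _a_at were left out.

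The remaining fibrillar chains were dim. Col5a1, a chain of type V collagen that helps start fibrils, read 75.3 and 80.7 and passed the minimum on 1 array only. Col5a2 lay just under the minimum at 75.7 and 69.4, the other way round. Col1a1, the partner chain of Col1a2, read 46.2 and 56.3, so type I collagen was followed by 1 of its 2 chains.

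Type VI collagen forms beaded filaments around cells. Each of its 3 chain genes among the members read higher on the array labelled MAOO, but only Col6a3 reached the minimum on both arrays. Col6a3 read 109.7 on the array labelled OO and 140.4 on the array labelled MAOO, 1.28-fold higher. Col6a1 read 66.1 and 90.4, a log2 ratio of 0.45. No measured member had a higher ratio, but Col6a1 reached the minimum only on the array where it was higher. Col6a2 stayed under the minimum on both arrays at 52.3 and 75.1, and its other probe set read 54.2 and 71.3. With all signals under 80 set to 80, the ratio of Col6a1 was 0.18.

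Type IV collagen, the mesh of basement membranes, went the other way. Col4a1 read 341.2 on the array labelled OO and 284.4 on the array labelled MAOO, a log2 ratio of -0.26, and its other measured probe set read 146.1 and 92.7, a log2 ratio of -0.66. Col4a2, whose start overlaps that of Col4a1 as printed above, read 142.1 and 123.5, a log2 ratio of -0.20. All 3 measured probe sets of the pair were thus lower on the array labelled MAOO. Among genes of the same signal range, 6.57% had a lower ratio than Col4a1 and 19.2% a lower ratio than Col4a2. In size the ratio of Col4a1 exceeds the SD between probe sets of 0.18 in its range, and that of Col4a2 lies under its 0.27. Neither gene reached 1.2-fold on the probe set used.

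The other basement membrane genes lay on both sides of 0. Nid1, which encodes the nidogen that links laminin to type IV collagen, read 183.6 and 204.5, a log2 ratio of 0.16. The laminin chain genes Lamb1 and Lamc1 stayed under the minimum, at 67.1 and 69.9 for Lamb1 and 53.8 and 53.7 for Lamc1. Col18a1, the collagen that releases endostatin, read 2100.5 and 2156.4, a log2 ratio of 0.04, with -0.02 on its other probe set. Hspg2, the perlecan gene and no member, had a log2 ratio of -0.36 at signals of 119.9 and 93.7.

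Col14a1, a collagen that sits on the surface of fibrils, was 1.21-fold higher at 453.2 and 548.2. Its other measured probe set, at 139.1 and 142.1, gave a log2 ratio of only 0.03, so the size of this difference rests on the choice of probe set.

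The small leucine-rich proteoglycans, which coat collagen fibrils, split in direction. Lum, the lumican gene, read 195.2 on the array labelled OO and 246.9 on the array labelled MAOO, 1.26-fold higher, with 1 probe set. Dcn, the decorin gene, read 2067.2 and 1809.9, a log2 ratio of -0.19. Bgn, the biglycan gene, read 910.3 and 911.3, and its 3 measured probe sets had log2 ratios of 0.0016, 0.08 and 0.12. Bgn thus differed by less than its probe sets disagree, and its sign turned with equal medians and with quantile normalization.

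**Figure D2:**
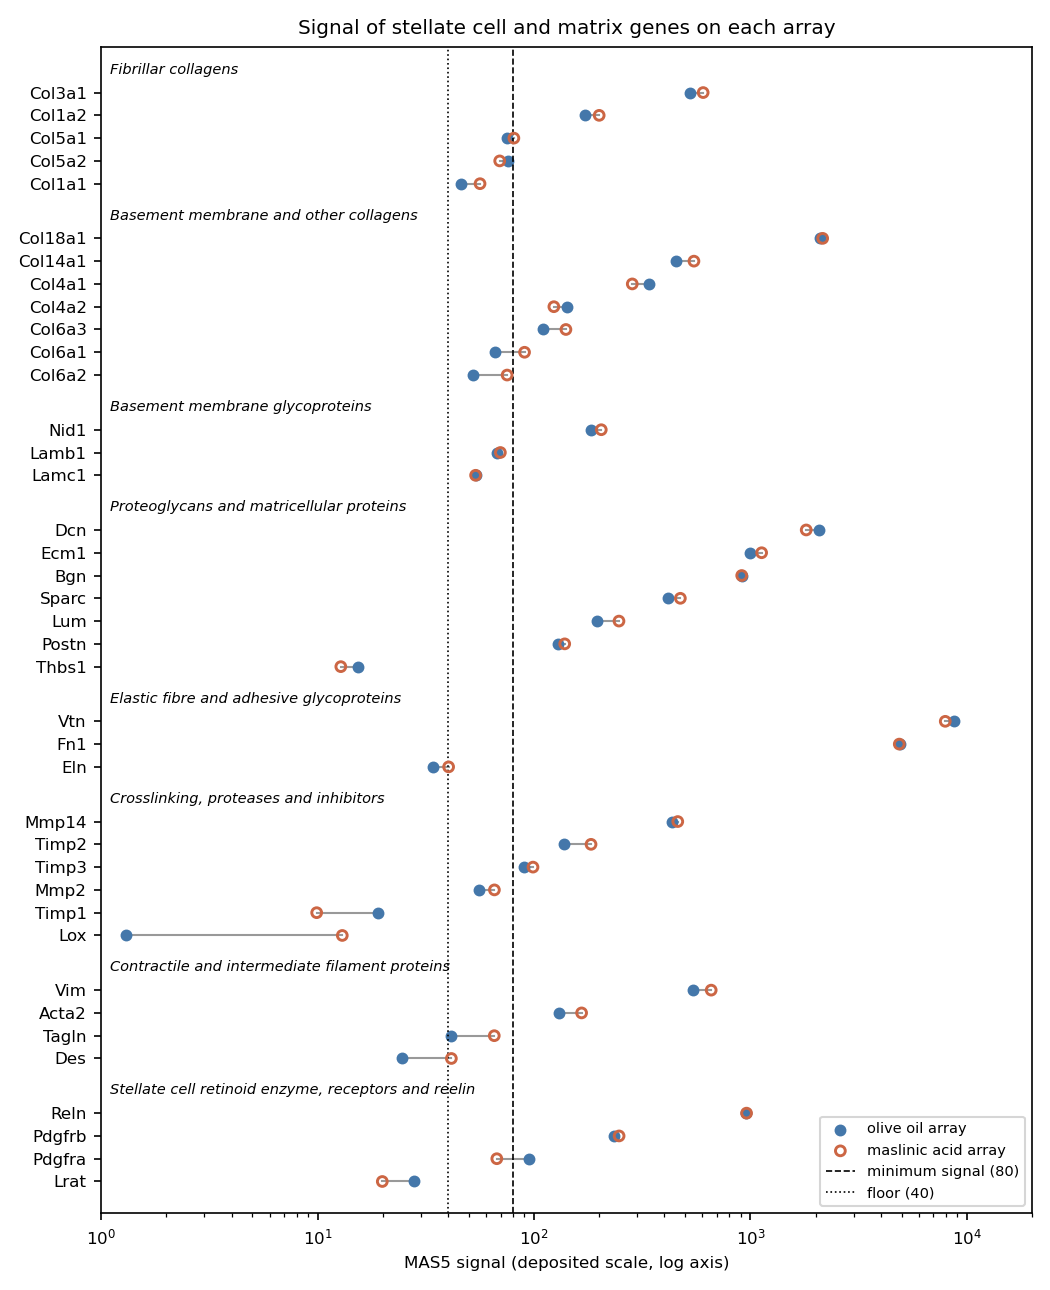
Signal of each of the 39 named members on the array labelled OO (filled blue) and the array labelled MAOO (open orange), on a log axis, grouped by role; the dashed line marks the minimum of 80 and the dotted line the floor of 40. The type VI collagens, Acta2, Tagln and Timp2 sit to the right on the array labelled MAOO, and Col4a1, Col4a2 and Pdgfra to the left.

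Among matricellular proteins, which tune how cells bind matrix, Ecm1 read 994.9 and 1126.5, a log2 ratio of 0.18. Of genes with a mean signal over 1000, 7.19% lay higher than that, but Ecm1 sat at the lower edge of this range with a mean of 1060.7. Over all measured genes 83.4% had a lower ratio than Ecm1. Sparc, the osteonectin gene, gave a log2 ratio of 0.19 at 415.8 and 474.4 but -0.03 on its other measured probe set, at 318.1 and 310.8. Postn, the periostin gene of activated fibroblasts, read 128.8 and 138.6, a log2 ratio of 0.11. Thbs1, the thrombospondin gene, lay under the floor on both arrays at 15.4 and 12.8.

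The adhesive glycoproteins that hepatocytes also secrete were lower or level. Vtn, the vitronectin gene, read 8751.6 on the array labelled OO and 7947.0 on the array labelled MAOO, a log2 ratio of -0.14, and its other probe set gave -0.08. Fn1, the fibronectin gene, read 4930.7 and 4872.0, a log2 ratio of -0.02, while its other measured probe set read 329.9 and 407.1, a log2 ratio of 0.30. The sign of Fn1 also turned with quantile normalization and with the loess trend removed. Eln, the elastin gene, read 34.0 and 40.3, at the floor.

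Beside Vtn, all 10 measured hepatocyte markers had log2 ratios under 0, between -0.23 and -0.01, with a median of -0.16. Their summed signal was 82426 on the array labelled OO and 74417 on the array labelled MAOO. These values are from the probe sets used. Other measured probe sets reached 0.64 for Hnf4a and 0.12 for Tdo2, while those of Ttr stayed under 0. Bright genes in general lay lower, since 39.1% of the genes with a mean signal over 1000 were above 0. With quantile normalization the median of the markers was -0.060 and with the loess trend removed -0.086, and with each of these 9 of the 10 lay under 0. Their part in the values of Vtn and Fn1, or in the ratio of any stromal gene, was not tested. In whole liver, fewer cells of a type and less RNA per cell cannot be told apart.

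Among the genes that remodel matrix, the TIMP genes differed from each other. Timp2, an inhibitor that also helps activate Mmp2 at the cell surface, read 137.1 on the array labelled OO and 183.4 on the array labelled MAOO, 1.34-fold higher. Its further measured probe sets read 145.3 and 162.7 on the respective arrays, and 98.5 and 120.7, with log2 ratios of 0.16 and 0.29, so all 3 pointed the same way. Timp3, which stays bound to matrix, had log2 ratios of 0.13 and -0.10 on probe sets of near equal signal, and no direction can be given. Timp1, which is induced in activated stellate cells, lay under the floor on both arrays at 19.1 and 9.9.

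The protease genes were near level or dim. Mmp14, the membrane-bound metalloproteinase that activates Mmp2, read 433.0 and 461.5, a log2 ratio of 0.09, with 0.08 on its other measured probe set. Mmp2, the gelatinase gene, stayed under the minimum at 55.9 and 65.6. Lox, the lysyl oxidase gene, lay under the floor with all 3 of its probe sets.

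The contractile and filament genes, which myofibroblasts and vascular smooth muscle share, were higher on the array labelled MAOO. Vim, an intermediate filament gene of mesenchymal and white blood cells, read 544.9 and 658.6 with a log2 ratio of 0.27. Its further probe sets read 347.2 and 394.2, and 248.5 and 331.3, with log2 ratios of 0.18 and 0.41, so all 3 were higher. Acta2, the smooth muscle actin gene used as the mark of activated stellate cells, read 130.3 and 165.9, 1.27-fold higher, on 1 measured probe set, whose suffix _s_at marks probes shared among transcripts. Only 8.19% of genes of its signal range lay higher.

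The companion genes of Acta2 were too dim to measure. Tagln, the transgelin gene, read 41.5 and 65.5, which is 1.58-fold, but stayed under the minimum on both arrays. Des, the desmin gene of rodent stellate cells, read 24.5 and 41.5, at the floor. Of 11 smooth muscle markers, 4 were measured and 3 of those were higher, with Tpm2 at 0.23 and Tpm1 at 0.14 against Cald1 at -0.17. The defining smooth muscle genes Myh11, Cnn1 and Actg2 lay under the floor on both arrays, at no more than 30.1.

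Among the members that are receptors or markers of stellate cells, Reln and Pdgfrb lay within 0.1 of 0 on the log2 scale. Reln, the reelin gene, a stellate cell marker in liver, read 956.3 on the array labelled OO and 959.4 on the array labelled MAOO, a log2 ratio of 0.0047. Pdgfrb, the receptor through which platelet-derived growth factor drives stellate cell division, read 234.9 and 247.2, a log2 ratio of 0.07. Lrat, the enzyme that forms retinyl esters, lay under the floor at 27.8 and 19.9. Pdgfra, the related receptor found on several fibroblast types, read 94.7 and 67.3, a log2 ratio of -0.49. No measured member had a lower ratio, but Pdgfra reached the minimum on 1 array only and gave -0.24 with all signals under 80 set to 80.

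The label of the module was thus only partly borne by the array. Of 12 stellate cell markers, 9 were named and 3 measured: Reln, Pdgfrb and Rgs5, a pericyte gene at 415.7 and 392.0. Lrat, Hand2 and Ngfr lay under the floor on both arrays, and the summed signal of the 9 was 1784 and 1831 on the arrays labelled OO and MAOO. Of a longer list of 15 stellate cell genes, 5 were measured with a median log2 ratio of 0.0028. In it Angptl6 lay at -0.12 and Rgs5 at -0.08, the latter with -1.19 on its other probe set. Pth1r lay at 0.35 but reached the minimum on 1 array only, at 69.7 and 88.9, and gave 0.15 with all signals under 80 set to 80.

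**Figure D3:**
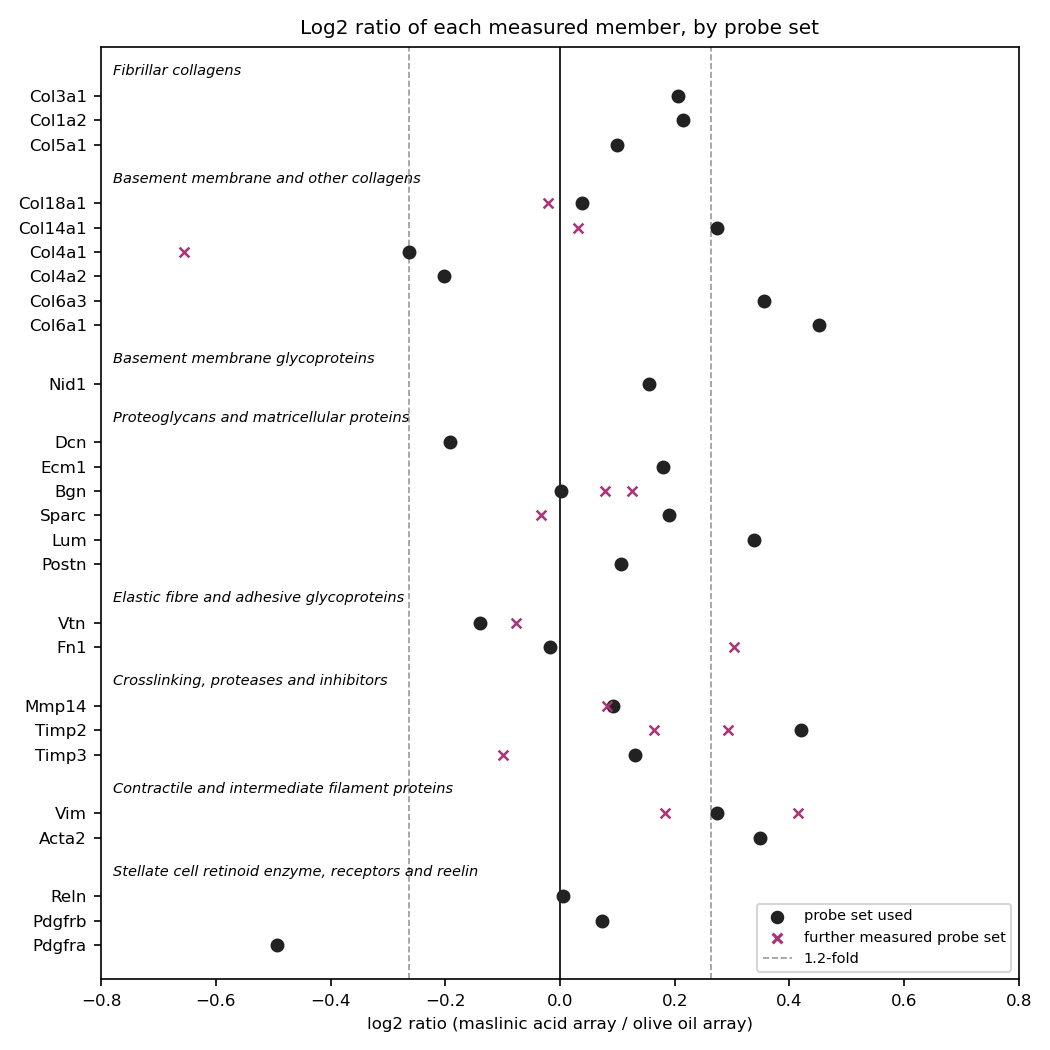
Log2 ratio (MAOO over OO array) of the 26 measured members, grouped by role; filled points are the probe set used, crosses the further measured probe sets of the same gene, and dashed lines mark 1.2-fold. Vim, Timp2 and Bgn keep their sign over 3 probe sets each and Col4a1 over both of its own, while Fn1, Sparc, Timp3 and Col18a1 lie on both sides of 0.

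Other probe sets of the same genes gave further readings of some members. Of the 26 measured members 15 had 1 measured probe set. In 7 of the other 11 all further probe sets had the sign of the one used, among them Bgn, which lay at only 0.0016. In 4, Fn1, Sparc, Timp3 and Col18a1, they did not. The same share over all genes with several measured probe sets was not taken. The 14 further measured probe sets had a median log2 ratio of 0.08, with 9 above 0. Of all measured genes 47.8% lay above 0 on the probe set used.

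Members that did not pass the minimum add little. Of the 13, 4 lay under the floor on both arrays (Lox, Timp1, Lrat and Thbs1). Of the other 9, 7 were higher on the array labelled MAOO and 2, Col5a2 and Lamc1, lower. A minimum on either array admits a gene through the side where it is higher. Of the 26 measured members, 23 reached 80 on both arrays and 3 on 1 array, namely Col5a1, Col6a1 and Pdgfra. Over the 23 the median was 0.13 with 18 above 0, and 6 differed by 1.2-fold or more upward and 0 downward. Of all 5532 genes that reached 80 on both arrays, 47.6% lay above 0. In each direction 7.94% of those genes differed by 1.2-fold or more.

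Genes that process procollagen were mostly higher as well. Of 19 such genes 9 were measured, with a median log2 ratio of 0.12 and 7 above 0, beside 47.8% of all measured genes. At 1.2-fold or more 1 was higher, beside 9.47% of all measured genes, and 0 lower, beside 9.52%. The median was 0.012 with no minimum. It turned to -0.0076 over 5 genes when probe sets ending in _x_at, _s_at or _a_at were left out. Pcolce, the enhancer of procollagen C-proteinase, read 198.5 and 269.3, 1.36-fold higher. Bmp1, that proteinase itself, gave 0.23 and Serpinh1, the collagen chaperone, 0.21, with 0.20 on its other probe set.

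Among 46 further matrix genes only 11 were measured, 6 higher and 5 lower, with a median of 0.13. That median was 0 with no minimum, 0.25 with a minimum of 160 and 0.056 without the suffixed probe sets. Efemp1, the fibulin-3 gene, read 206.4 and 333.9, 1.62-fold higher. Chosen after their values were seen, Prelp and Ccn2 are added. Prelp, a proteoglycan that ties basement membrane to connective tissue, read 307.2 and 383.6, a log2 ratio of 0.32. Ccn1, an early gene of matrix signalling, read 155.1 and 104.6, a log2 ratio of -0.57. Ccn2, the connective tissue growth factor gene and a TGF-beta target, read 182.5 and 151.1, a log2 ratio of -0.27. Genes of the further matrix list thus lay on both sides of 0.

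The upstream pathway genes had no shared direction. TGF-beta is the main signal that drives collagen genes in stellate cells, and of 23 genes of TGF-beta and PDGF signalling 12 were measured, 6 higher and 6 lower, with a median of -0.02 that turned to 0.05 without the suffixed probe sets. Smad7, the inhibitor that the pathway induces, read 118.6 and 52.1, a log2 ratio of -1.19, and Skil, a further feedback inhibitor, gave -0.57. Ltbp3, which helps store latent TGF-beta in matrix, was 1.61-fold higher at 60.5 and 97.6. Smad7 and Ltbp3 each reached the minimum on 1 array only, and with all signals under 80 set to 80 their log2 ratios were -0.57 and 0.29.

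Of 10 measured receptor genes for matrix 6 lay under 0, beside 52.0% of all measured genes, with a median of -0.11 that was 0 with no minimum. Sdc4, the syndecan-4 gene, read 1282.4 on the array labelled OO and 820.9 on the array labelled MAOO, a log2 ratio of -0.64, and -1.21 on its other probe set. Cd44, the hyaluronan receptor gene, gave -0.36 and Sdc3 -0.27. Of 25 further proteases and inhibitors 5 were measured, 3 higher and 2 lower, with Adam17 at -0.36 and Reck at 0.16, and with Mmp19, which reached the minimum on 1 array only, at -0.19 and at -0.03 with all signals under 80 set to 80. Of 11 retinoid genes 5 were measured, with Dgat1 at 0.27, Rbp4 at -0.18 and Dhrs3 at 0.13. Over the 52 measured genes of these 6 lists the median was 0.04, with 30 above 0, and 6 differed by 1.2-fold or more upward and 9 downward. Of all measured genes 47.8% lay above 0, and 9.47% differed by that size upward and 9.52% downward.

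**Figure D4:**
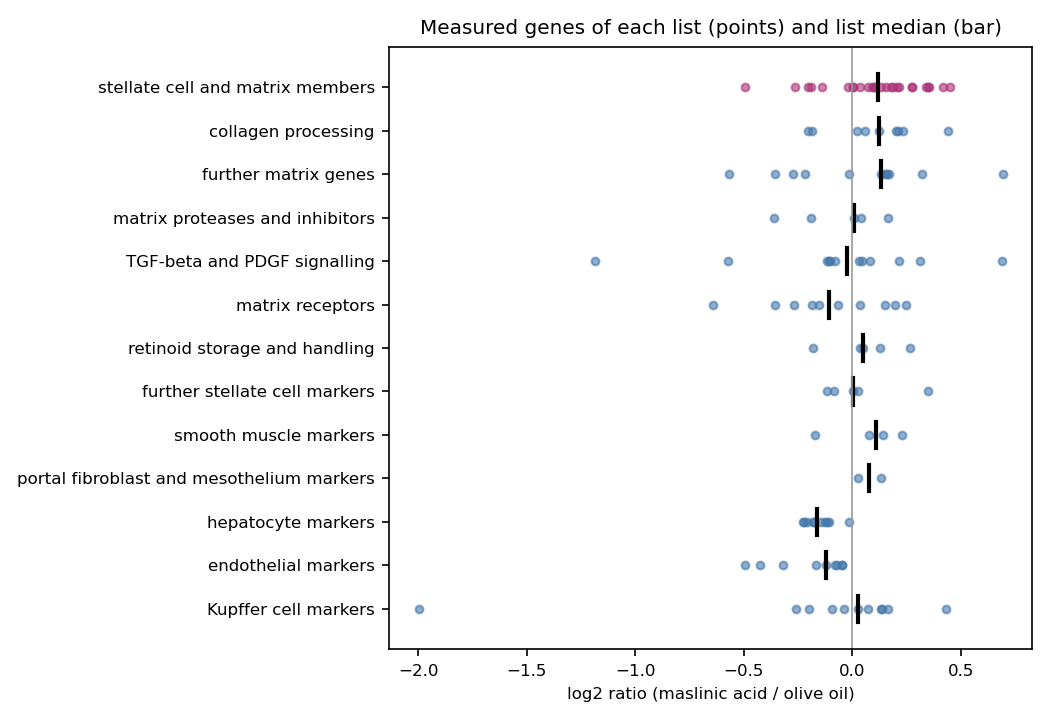
Log2 ratio (MAOO over OO array) of the measured genes of each list as points, with the list median as a bar; the top line holds the 26 members. The medians of the members, of collagen processing and of further matrix genes lie at 0.12 to 0.13, and those of hepatocyte and endothelial markers at -0.16 and -0.12. Under other settings the medians of collagen processing and further matrix genes reached -0.0076 and 0, and that of hepatocyte markers -0.060.

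Markers of other liver cells also differed between the arrays. All 9 measured endothelial markers of 13 were lower, beside 52.0% of all measured genes. Their log2 ratios ran from -0.49 to -0.05, with a median of -0.12. The other measured probe set of Eng gave 0.0069. Pecam1 stayed under the minimum and went the other way, at 53.5 on the array labelled OO and 61.0 on the array labelled MAOO. Kdr, the VEGF receptor gene, read 245.0 and 174.0, Oit3 238.6 and 177.8, and Cdh5, the endothelial cadherin gene, 133.2 and 106.7. Endothelial cells also make type IV collagen, and the summed endothelial signal of 3459 on the array labelled OO and 3108 on the array labelled MAOO went the way of Col4a1 and Col4a2; its part in their values was not tested. Kupffer cell markers had a median of 0.03, 6 of 11 above 0, with summed signals of 12129 and 12103 and running from Marco at -2.00 to C1qb at 0.43. Portal fibroblast and mesothelial markers were represented by Dpt at 0.13 and Gas6 at 0.02, while Thy1, Fbln2 and Clec3b lay under the floor. All 4 cholangiocyte markers of the short list (Krt19, Krt7, Epcam and Sox9) did too.

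The arrays themselves set a limit. Apoe, the gene labelled as knocked out in both groups, read 407.7 on the array labelled OO and 7630 on the array labelled MAOO, 18.7-fold higher on 1 probe set. The signal on the array labelled MAOO goes against the knockout label, and whether the probes lie in the disrupted part of the gene is unknown here. Directions therefore hold only between the arrays as labelled. The 3′ to 5′ signal ratio of the control transcript Gapdh was 0.915 and 0.895, and that of Actb 2.31 and 2.77; the part of RNA quality in the members' ratios was not tested.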

How the data were processed

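Biotin-labelled cRNA from liver RNA was hybridised to 1-colour Affymetrix arrays, per the labels' protocols. The authors deposited linear intensity values, 1 for each probe set of an array, from MAS5, which the submitters' processing notes name without version or settings. Both arrays had a 2% trimmed mean of 200.1. Of 22690 probe sets, 20380 outside the controls named 1 gene in the platform annotation and were used.

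Signals under 40 were set to 40 and log2 ratios taken (Python 3.11.15, pandas 2.3.3, NumPy 2.4.6). Dim signals are the noisier, and the number of arrays limits the precision. Detection calls were not used here. Levels are not compared between genes, whose probes differ. Promoter sequences are from RefSeq (GRCm38.p6); 27 members matched by symbol. The members and lists were chosen with earlier results of these data known. Of each list outside the members, up to 3 measured genes with the largest absolute ratio are named. All members, some further cell type markers and Apoe are named too, with Tdo2 and Eng added for their other probe sets. Steps were tested on simulated 1.5-fold changes, with noise smaller than the SD between probe sets and dim genes left out. That check does not cover 1.2-fold changes or dim genes. A total of 11 alternatives in scaling, floor, minimum and probe sets, and 1 added after seeing the data, were tried.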

Additional observations from a re-analysis of the deposited data

How the results depend on the processing

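No paired analysis was possible because there is 1 array for each diet, and for the same reason no array could be left out. Over 12 alternatives, of which 1, a minimum of 80 on both arrays, was chosen after seeing the data, the median log2 ratio of the measured members ran from 0.09 to 0.16. For 6 of the alternatives (no floor, a floor of 20 and those on the minimum) no measured member's ratio can move. Under the other 6, 147 of 150 values of single members moved by less than the SD between probe sets, 3 moved by more and 0 members at least 1.2-fold apart turned in sign. The 3 were Col6a1 (0.18) and Pdgfra (-0.24) with a floor of 80, and Col14a1 (0.03) without _x_at, _s_at and _a_at probe sets. The sign turned in 4 members close to 0: Bgn, Reln, Fn1 and Col18a1.

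The members at least 1.2-fold lower numbered 2 with equal medians and with the mean of measured probe sets, and 0 with a floor of 80, a minimum of 160 or a minimum on both arrays. Those at least 1.2-fold higher numbered 4 without _x_at, _s_at and _a_at probe sets, where Acta2 was not measured and Col14a1 (0.03) and Vim (0.18) were read from other probe sets. With no minimum 1 member, Tagln, was at least 1.5-fold higher. The median of basement membrane and other collagens was 0.27 with no minimum, 0.038 with a minimum of 160, on the mean or on both arrays, and 0.0046 without the suffixed probe sets. Collagen processing gave 0.012 with no minimum and turned to -0.0076 without the suffixed probe sets. Further matrix genes gave 0 with no minimum, 0.25 with a minimum of 160 and 0.056 without the suffixed probe sets. Matrix receptors gave 0 with no minimum. TGF-beta and PDGF signalling gave -0.092 with the minimum on the mean and 0.046 without the suffixed probe sets. Hepatocyte markers gave -0.060 with quantile normalization and -0.086 with the loess trend removed. The cause of these shifts was not tested.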
